A study of Mus musculus with 5 samples.

Results

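The genes that make sterols and fatty acids, with the regulators that switch them on, were read out in macrophages sorted from the intima, the inner lining of the mouse aorta, and from the adventitia, its outer coat. The members were a fixed list of 34 genes, found by their symbols among the 41388 Ensembl gene IDs of the files, and all 34 were present. Of these, 32 passed the filter on low counts; Idi1 and Fads2 did not. The list held 5 regulators, 7 enzymes from acetyl-CoA to farnesyl diphosphate, 11 enzymes from squalene formation to cholesterol, the sterol carrier Stard4, 4 enzymes from acetate and citrate to palmitate, and 6 elongases and desaturases.

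The 3 adventitia libraries came from ApoE-/- animals of strain C57BL/6 after 28 weeks on high-fat food. The sources name 6 such mice. These libraries held live CD64+ cells of the stripped outer layer, taken along the entire aorta. The 2 intima libraries came from C57BL/6 mice with no genotype or diet named, each from 5 pooled animals, and held live CD64+ CD11c+ MHC II+ cells from the thoracic aorta after its outer layer was taken off. Layer, genotype, diet, aortic segment and sort gate cannot be told apart in this comparison. The sources used here give no age, and do not say how the 6 knockout mice were divided among libraries, so the p-values rest only on the scatter among these 5 libraries, which may be partly technical. In such bulk samples fewer cells of a type and less RNA per cell cannot be told apart.

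Cells build cholesterol from acetyl-CoA through mevalonate, farnesyl diphosphate, squalene and lanosterol, and build fatty acids by joining malonyl units into palmitate, which is then elongated and desaturated. Both routes are driven by the membrane-bound transcription factors encoded by Srebf1 and Srebf2. When membranes hold enough sterol, the Insig proteins keep the Scap escort protein in the endoplasmic reticulum and the factors stay uncleaved. Macrophages that take up lipoproteins or other cells import sterol, while dividing cells need new membrane lipid. These statements are background and not results of these libraries.

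The 250 bases before the annotated start are shown for a sterol enzyme, a fatty acid enzyme and a regulator whose levels the results turn on, since the factors that drive the pathway act at such promoters. The sequences are from RefSeq (GRCm38.p6), whose table held 35 promoters of 27 of the 34 members. Capitals mark the sterol regulatory element TCACNCCAC and the NF-Y box CCAAT, each on either strand. The Hmgcs1 stretch is chr13:119690101-119690350 (plus strand), the Fasn stretch chr11:120824548-120824797 (minus strand) and the Insig1 stretch chr5:28071162-28071362 (plus strand), where 201 bases are shown because the deposited gene model starts earlier than the RefSeq one. All 3 lie upstream of the deposited gene models.
Hmgcs1: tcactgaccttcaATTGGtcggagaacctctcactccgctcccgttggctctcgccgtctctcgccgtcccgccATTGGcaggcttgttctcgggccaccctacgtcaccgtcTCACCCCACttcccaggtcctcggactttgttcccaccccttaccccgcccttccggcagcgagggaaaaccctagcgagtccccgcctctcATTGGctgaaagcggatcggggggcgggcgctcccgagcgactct
Fasn: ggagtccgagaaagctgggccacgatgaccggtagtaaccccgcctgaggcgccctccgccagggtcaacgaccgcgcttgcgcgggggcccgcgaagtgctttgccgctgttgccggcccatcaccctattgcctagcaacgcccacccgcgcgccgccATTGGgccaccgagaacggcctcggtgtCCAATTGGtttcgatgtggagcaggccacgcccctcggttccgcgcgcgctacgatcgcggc
Insig1: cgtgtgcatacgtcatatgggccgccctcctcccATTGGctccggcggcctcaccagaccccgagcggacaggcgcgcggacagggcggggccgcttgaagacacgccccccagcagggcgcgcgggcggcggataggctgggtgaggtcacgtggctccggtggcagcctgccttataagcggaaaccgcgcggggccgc

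The Hmgcs1 promoter held TCACNCCAC 137 bases before the start, the only match among the 35 member promoters (2.86%), against 346 of all 32851 promoters in the table (1.05%). CCAAT was in 22 of the 35 (62.9%) and in 33.8% of all promoters. The E-box CACGTG was in 6 (17.1%) against 6.02%, and the GC box GGGCGG in 25 (71.4%) against 32.7%. The table covers every gene type, no motif contains another, a pair of CCAAT matches on opposite strands in Fasn overlap, and a match is a description and not a binding site. Hmgcs1 and Fasn were among the genes at least 10-fold apart between the 2 intima libraries, and Insig1 was the member with the smallest adjusted p between the groups.

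The libraries held 3941381, 10076142 and 10054377 counted reads in the adventitia and 14970204 and 20806925 in the intima. Apoe, which the ApoE-/- animals lack, was at 10.9 to 18.2 CPM there and at 5563 and 4409 CPM in intimal cells, where CPM is reads scaled to a common total with TMM normalisation. All 10 macrophage markers had reads in every library, with summed levels of 20628 to 30888 CPM in adventitial cells against 29311 and 20475 CPM in intima replicates 1 and 2. Lyz2 was the most abundant of them, and Fcgr1, which encodes the sorted CD64, was at 99.3 to 281 CPM in adventitial cells against 179 and 146 CPM in intimal cells. The intima libraries stood apart from each other: 31.6% of the 13408 tested genes differed at least 4-fold between them, and 1309 tested genes had no read in replicate 1 and 1445 none in replicate 2, against 223, 87 and 74 in the adventitia. Although sequenced more deeply, the intima libraries had reads for 17489 and 16374 genes against 23289 to 25738 in the adventitia. Thinned to the smallest library, these were 13868 and 13434 against 21023 to 23289. How much RNA went into each library is not given in the sources used here, so for a level at or near 0 in 1 intima library, absence and loss before sequencing cannot be told apart. Results that rest on one of them are given for both.

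No member passed the edgeR test between intima and adventitia. None of the 32 was called by quasi-likelihood in edgeR after Benjamini-Hochberg adjustment over all tested genes, where 0.671% of genes were called (0.522% higher and 0.149% lower in the intima), and 2 had an unadjusted p under 0.05 (22.4% of all tested genes did). DESeq2 called 1 member (8.8% of all genes), Insig1, and limma voom called 0 (6.26% of all genes). The fitted log2 differences, intima minus adventitia throughout, ran from -2.79 for Acss2 to 2.29 for Scd2 with a median of 0.37, against 0.14 over all tested genes and 0.43 over the 9794 genes in the members' range of average level (log2 CPM 1.47 to 7.31). With upper-quartile scaling those medians were -0.13 and -0.35, and with library size alone 0.14 and -0.09. Standard errors reached 2.01, so differences of several fold in single members did not pass.

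The group ranges of most members overlapped. Group ranges did not overlap for 4 of 32 members, 1 higher (Insig2) and 3 lower (Insig1, Acss2 and Acaca) in the intima, while 40.9% of all tested genes did not overlap (17.7% higher and 23.2% lower), and 33.9% of the genes in the same range of average level. Scaled by library size alone the members were Insig1, Stard4, Acss2 and Acaca, and by the upper quartile these 4 and Lss, all lower in the intima and none higher. With 3 against 2 libraries an exact two-sided permutation test of 1 gene cannot give a p below 0.1. In the plot of levels by library, intima replicate 1 and intima replicate 2 often sat on opposite sides of the adventitia libraries.

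**Figure D1:**
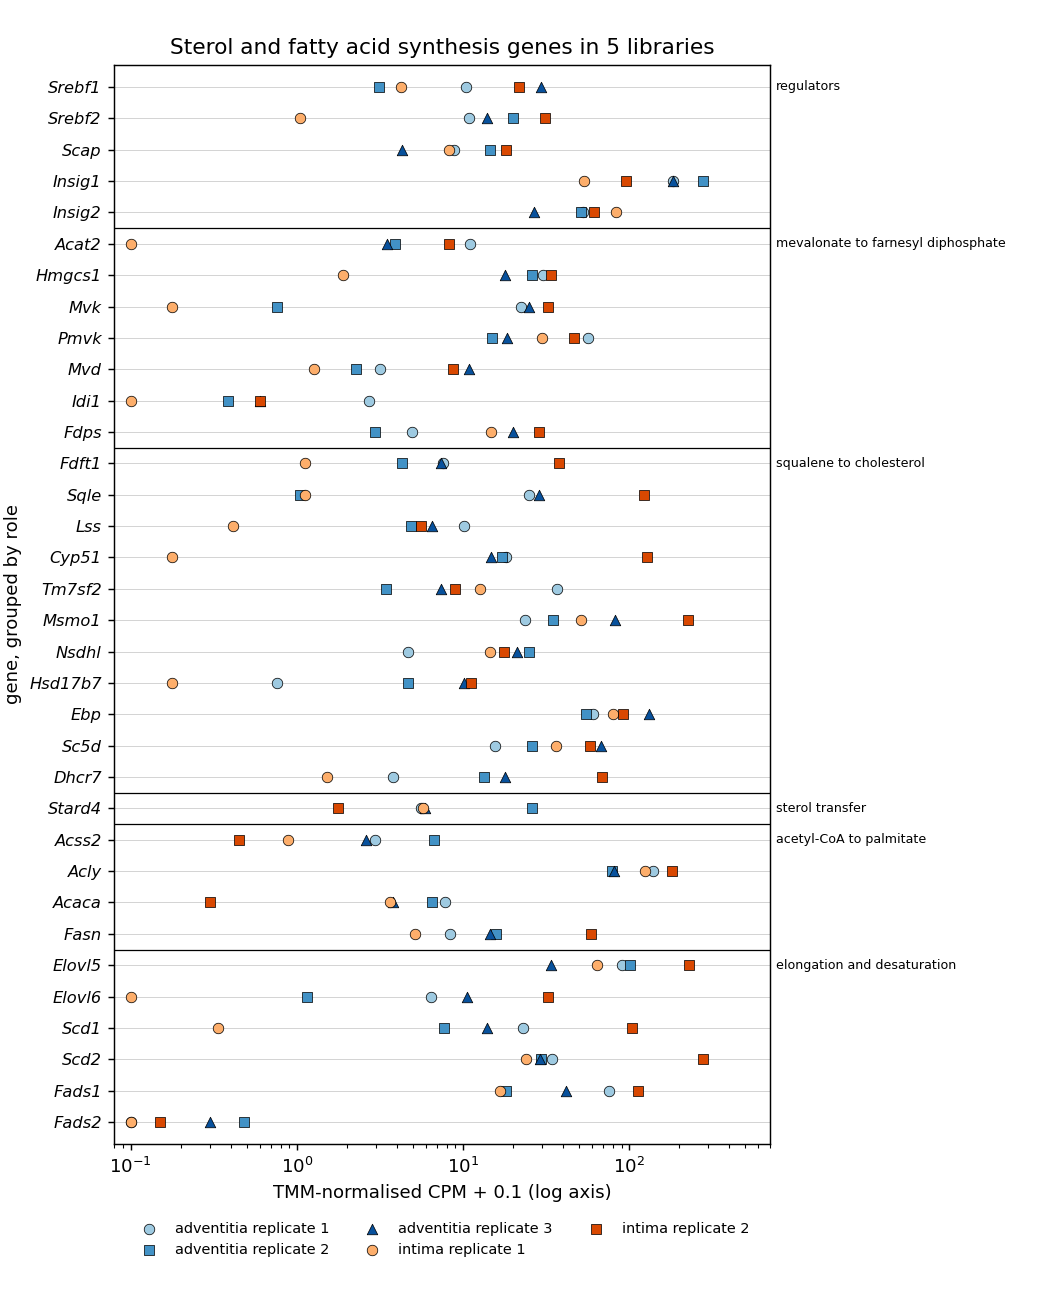
TMM-normalised CPM plus 0.1 (log axis) of the 34 genes in each of the 5 libraries, with genes grouped by role and 1 point per library. Intima replicate 1 is the lowest point for 16 of the 32 tested genes and intima replicate 2 the highest for 18.

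Among the regulators, Insig1 had the smallest adjusted p of all members. Insig1, which encodes an anchor that retains Scap, was at 184, 279 and 184 CPM in adventitial cells against 53.2 and 96.0 CPM in intimal cells. Every adventitia library lay above both intima libraries. Its log2 difference of -1.53 (SE 0.50, n = 3 and 2) did not pass in edgeR (adjusted p = 0.116), while DESeq2 gave -1.70 with an adjusted p of 0.0311. The gene lies on chromosome 5 from 28071363 to 28078662 on the plus strand in GRCm38. Over the settings tried the difference ran from -2.02 to -1.30.

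Insig2, the related anchor whose gene is on chromosome 1, had a difference of opposite sign. Its levels were 52.5, 51.2 and 26.6 CPM in adventitial cells against 83.7 and 61.4 CPM in intimal cells, and the fitted difference was 0.74 (SE 0.63, adjusted p = 0.542 in edgeR). Its ranges did not overlap with TMM but did when libraries were scaled by the upper quartile or by their size. The opposite signs of Insig1 and Insig2 were not tested against each other.

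The 2 transcription factor genes showed no common shift between the groups. Srebf2, which mainly serves the sterol branch, was at 10.7, 19.9 and 13.9 CPM in adventitial cells, against 0.941 CPM in the first intima library and 31.1 CPM in the second. Intima replicate 1 was thus the lowest and replicate 2 the highest of the 5 libraries, and the log2 difference of the groups was 0.11 (SE 1.41, adjusted p = 0.979 in edgeR). Srebf1, which mainly serves the fatty acid branch, was at 10.3, 3.04 and 29.3 CPM in adventitial cells against 4.15 and 21.7 CPM in intimal cells. Its adventitia libraries alone spread 8.41-fold, with 0.5 CPM added to both levels as in every count past a fold threshold, and the log2 difference was -0.14 (SE 1.41, adjusted p = 0.973 in edgeR). Scap, the sterol-sensing escort, was at 4.20 to 14.5 CPM in adventitial cells against 8.15 and 18.1 CPM in intimal cells (log2 difference 0.52, SE 1.37, adjusted p = 0.875 in edgeR), and 18.9% of its exon bases overlap a gene on the opposite strand.

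The early enzymes lead from acetyl-CoA through mevalonate to farnesyl diphosphate, and 6 of the 7 were tested, with a median log2 difference of -0.04. Hmgcs1, which makes HMG-CoA, was at 30.4, 26.0 and 17.7 CPM in adventitial cells against 1.80 and 33.6 CPM in intimal cells. Its intima libraries bracketed all adventitia libraries (log2 difference -0.48, SE 1.22, adjusted p = 0.871 in edgeR), and 11.6% of its 50-base windows recur in other genes. Mvk, mevalonate kinase, was at 22.3, 0.666 and 24.7 CPM in adventitial cells against 0.0784 and 32.4 CPM in intimal cells. Here both groups held a library near zero, adventitia replicate 2 and intima replicate 1 (log2 difference 0.03, SE 1.82, adjusted p = 0.995 in edgeR).

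Acat2, a cytosolic acetyl-CoA acetyltransferase, was at 10.9, 3.81 and 3.40 CPM in the adventitia, had no read in intima replicate 1 and was at 8.16 CPM in intima replicate 2. Mvd, mevalonate diphosphate decarboxylase, was at 2.19 to 10.7 CPM in adventitial cells against 1.18 and 8.66 CPM in intimal cells. For both genes intima replicate 1 was the lowest library and intima replicate 2 lay inside the adventitia range. The log2 differences were -0.56 for Acat2 (SE 2.01, adjusted p = 0.913 in edgeR) and -0.11 for Mvd (SE 1.68, adjusted p = 0.982 in edgeR). Of the 50-base windows of Acat2, 39.1% also occur in Acat3 or Tcp1. Pmvk, phosphomevalonate kinase, and Fdps, farnesyl diphosphate synthase, did not follow this pattern. Pmvk was at 56.7, 14.8 and 18.2 CPM in adventitial cells against 29.8 and 46.7 CPM in intimal cells, and Fdps at 4.81, 2.85 and 19.9 against 14.7 and 28.4 CPM. Of the 50-base windows of Fdps 26.2% recur in other genes. Idi1, the isomerase before Fdps, had at most 2.63 CPM in any library and did not pass the filter. Of its 50-base windows 25.3% also occur in transcripts of other genes, and the part of this in the low count was not tested.

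The later sterol enzymes had a median log2 difference of 0.38, with 8 of 11 positive and none called. Sqle, squalene epoxidase, a rate-limiting step, was at 24.7, 0.951 and 28.7 CPM in adventitial cells against 1.02 and 123 CPM in intimal cells. The highest and almost the lowest of its 5 values thus both came from the intima, and the log2 difference was 1.78 (SE 1.48, adjusted p = 0.533 in edgeR). Cyp51, lanosterol demethylase, was steady in the adventitia at 17.9, 17.1 and 14.7 CPM and was at 0.0784 and 128 CPM in intimal cells. A single read was counted in intima replicate 1 and 2539 in replicate 2 (group log2 difference 1.95, SE 1.48, adjusted p = 0.486 in edgeR). Cyp51 lies on chromosome 5 from 4081145 to 4104746 on the minus strand in GRCm38.

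Dhcr7, which reduces the last double bond on one route to cholesterol, was at 3.72, 13.2 and 17.7 CPM in adventitial cells against 1.41 and 68.8 CPM in intimal cells. Fdft1, squalene synthase, was at 7.44, 4.19 and 7.31 CPM in adventitial cells against 1.02 and 37.7 CPM in intimal cells. Both had their lowest level in intima replicate 1 and their highest in replicate 2, with log2 differences of 1.60 (SE 1.37, adjusted p = 0.549 in edgeR) and 1.62 (SE 1.53, adjusted p = 0.596 in edgeR). Hsd17b7, a keto-reductase of the demethylation complex, was at 0.656, 4.57 and 10.1 CPM in adventitial cells against 0.0784 and 11.1 CPM in intimal cells. Lss, lanosterol synthase, was at 4.76 to 10.1 CPM in adventitial cells against 0.314 and 5.49 CPM in intimal cells. Their log2 differences were 0.13 (SE 1.94, adjusted p = 0.982 in edgeR) and -1.28 (SE 1.76, adjusted p = 0.734 in edgeR). Exons of Fdft1 overlap those of Ctsb on the opposite strand over 26.8% of their bases, and without a stated strand setting such reads cannot be told apart.

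Msmo1, a sterol methyl oxidase, came closest to a call among these enzymes. It was at 23.4, 34.7 and 81.7 CPM in adventitial cells against 51.0 and 225 CPM in intimal cells, so the fitted difference was 1.57 (SE 0.73, adjusted p = 0.229 in edgeR). Intima replicate 1 lay within the adventitia range. Ebp, the sterol isomerase, was among the steadier genes, at 60.2, 54.9 and 132 CPM in adventitial cells against 79.7 and 91.4 CPM in intimal cells. Sc5d, Nsdhl and Tm7sf2, a desaturase, a dehydrogenase and a reductase of the same stretch, had log2 differences of 0.38, -0.08 and -0.56 and overlapped between the groups. Tm7sf2 shares 15.3% of its exon bases with Vps51.

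Stard4, which moves sterol between membranes, was at 5.47, 25.9 and 5.80 CPM in adventitial cells against 5.64 and 1.66 CPM in intimal cells. Adventitia replicate 2 stood above the other 4 libraries, and the gene's fitted difference, -1.76, did not pass (SE 1.63, adjusted p = 0.585 in edgeR).

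The first enzymes of fatty acid synthesis had differences of both signs, none called. Acly, which splits citrate into cytosolic acetyl-CoA, was at 138, 79.2 and 81.0 CPM in adventitial cells against 124 and 180 CPM in intimal cells (log2 difference 0.61, SE 0.50, adjusted p = 0.520 in edgeR). Fasn, the synthase that makes palmitate, was at 8.31, 15.7 and 14.4 CPM in adventitial cells against 5.02 and 58.8 CPM in intimal cells, again with intima replicate 1 lowest and replicate 2 highest (log2 difference 1.32, SE 1.17, adjusted p = 0.568 in edgeR). Acaca, the carboxylase that makes malonyl-CoA for Fasn, behaved otherwise.

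Acaca was at 7.66, 6.37 and 3.70 CPM in adventitial cells against 3.53 and 0.201 CPM in intimal cells. Both intima libraries lay below the adventitia, replicate 1 by a small margin, and the gene's fitted difference, -1.66, did not pass (SE 1.80, adjusted p = 0.652 in edgeR). Of its 50-base windows 30.4% recur in transcripts of other genes. Acss2, which makes acetyl-CoA from acetate, was at 2.84, 6.56 and 2.50 CPM in adventitial cells against 0.784 and 0.352 CPM in intimal cells, on 10 and 7 intima reads. Its log2 difference of -2.79 was the most negative among the members and did not pass (SE 1.63, adjusted p = 0.344 in edgeR), and 9.12% of its exon bases overlap genes on the opposite strand.

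The elongases and desaturases had the highest median of the groups of enzymes, a log2 difference of 1.45 over 5 tested genes. All 5 were positive with none called, where 7161 of all 13408 tested genes were positive. Without intima replicate 2 all 5 were negative, from -0.14 for Elovl5 to -8.78 for Elovl6. Scd2, a stearoyl-CoA desaturase, was at 34.3, 29.2 and 29.0 CPM in adventitial cells against 23.9 and 279 CPM in intimal cells. The 3 adventitia libraries and intima replicate 1 lay close together and intima replicate 2 stood far above them (log2 difference 2.29, SE 0.80, adjusted p = 0.131 in edgeR). Without intima replicate 1 the log2 difference of Scd2 was 3.04, and without intima replicate 2 it was -0.28. Each of these fits holds 1 intima library and so no spread within the intima. Scd1, its paralog on chromosome 19, was at 23.0, 7.61 and 13.8 CPM in adventitial cells against 0.235 and 104 CPM in intimal cells (log2 difference 1.82, SE 1.45, adjusted p = 0.509 in edgeR). Of the 50-base windows of Scd1 4.56% and of Scd2 3.97% occur in other genes, among them one another, Scd3 and Scd4.

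Elovl6, which extends palmitate to stearate, was at 6.34, 1.05 and 10.4 CPM in the adventitia, had no read in intima replicate 1 and was at 32.4 CPM in intima replicate 2. Fads1, a desaturase of polyunsaturated fatty acids, was at 75.3, 18.0 and 41.7 CPM in adventitial cells against 16.6 and 113 CPM in intimal cells. Both again had their lowest and highest level in the intima, with log2 differences of 1.45 (SE 1.97, adjusted p = 0.731 in edgeR) and 0.53 (SE 0.86, adjusted p = 0.789 in edgeR). Elovl5, an elongase of polyunsaturated fatty acids, was at 33.7 to 102 CPM in adventitial cells against 63.8 and 230 CPM in intimal cells (log2 difference 0.97, SE 0.66, adjusted p = 0.425 in edgeR). Fads2, the partner desaturase of Fads1, had at most 0.381 CPM in any library, at or below 4 reads, and did not pass the filter.

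**Figure D2:**
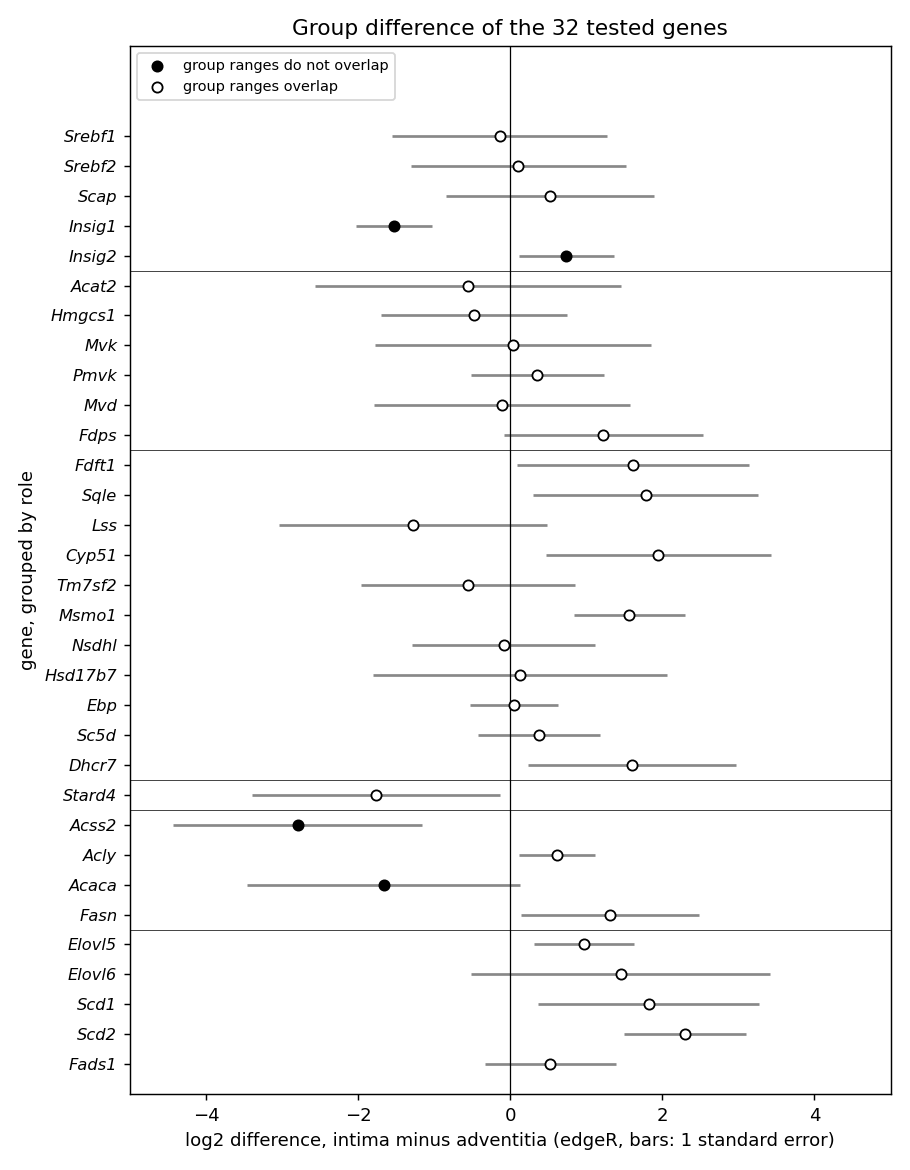
Fitted log2 difference, intima minus adventitia, of the 32 tested genes with bars of 1 standard error from edgeR. Filled points are the 4 genes whose group ranges do not overlap, and none of the 32 was called.

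Many of these genes differed widely between the 2 intima libraries. Intima replicate 2 was at least 4-fold above replicate 1 for 18 of 32 tested members, against 19.7% of all tested genes and 23.9% of genes in the same range of average level. The reverse held for 1 member, Acaca, against 11.9% of all tested genes and 14% of those in the same range. At least 16-fold in favour of replicate 2 were 10 members, where 8.71% of all tested genes and 11.7% of those in the same range were, and none was 16-fold higher in replicate 1 (4.37%). The median log2 ratio of replicate 2 over replicate 1 was 2.35 over the members and 0.00 over all tested genes. With 1 library a side there is no test of this contrast, and the ratios below, given without the added 0.5 CPM, have intervals that cover counting error only.

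**Figure D3:**
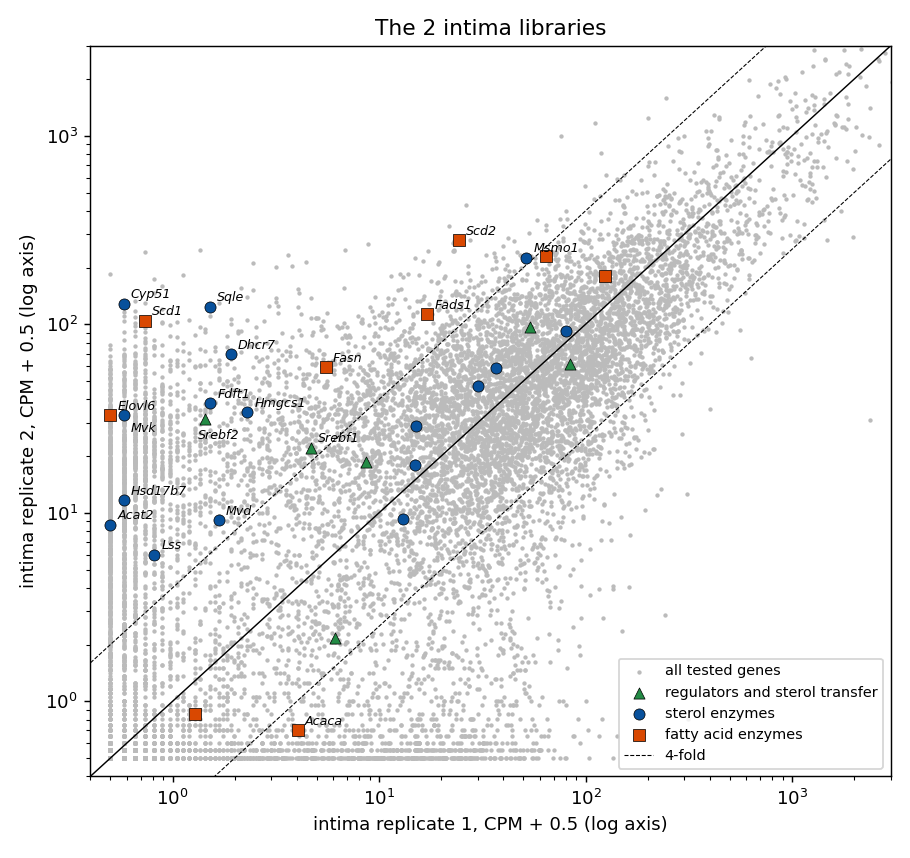
CPM plus 0.5 of each tested gene in intima replicate 1 and intima replicate 2 (log axes), with the 32 tested members in colour and dashed lines at 4-fold. Members past 4-fold are named, 18 above the upper line and 1, Acaca, below the lower one.

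Sterol enzymes were 11 of the 18 members at least 4-fold higher in replicate 2, and 17 of the 32 tested members. Past 4-fold were 4 of 6 tested early enzymes (Acat2, Hmgcs1, Mvk and Mvd) and 7 of 11 later ones (Fdft1, Sqle, Lss, Cyp51, Msmo1, Hsd17b7 and Dhcr7). Cyp51 had a ratio of 1631 with a 95% exact counting interval of 292 to 64442, from 1 read in replicate 1, and the interval does not cover loss of a transcript before sequencing. Sqle had a ratio of 121 (70.7 to 228), Dhcr7 one of 48.7 (30.7 to 82.5), Fdft1 one of 37.0 (21.5 to 69.7) and Hmgcs1 one of 18.7 (12.3 to 29.6). Msmo1, with many reads in both libraries, had the smallest ratio of the 11, 4.42 (4.07 to 4.81). Mvk and Hsd17b7 had 1 read each in replicate 1, and ratios of 413 (73.9 to 16339) and 142 (25.2 to 5632). Acat2, with no read in replicate 1, was at least 34.7-fold higher in replicate 2 against a floor of 3 reads in replicate 1. Mvd and Lss, at low levels in both libraries, had ratios of 7.37 (4.34 to 13.5) and 17.5 (6.64 to 65.4).

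Of the fatty acid genes 5 of 9 tested were past 4-fold in the same direction. Scd1 had a ratio of 443 (151 to 2149) on 3 reads in replicate 1, Scd2 one of 11.7 (10.4 to 13.1), Fasn one of 11.7 (9.11 to 15.3) and Fads1 one of 6.79 (5.89 to 7.85). Elovl6, with no read in replicate 1, was at least 138-fold higher in replicate 2 against the same floor. Of the regulators Srebf2, at 33.0 (18.8 to 64.3), and Srebf1, at 5.22 (3.92 to 7.09), were past 4-fold, while Insig1, Insig2 and Scap were not, with ratios of 1.80, 0.733 and 2.22. Acaca ran the other way, with 45 reads in replicate 1 and 4 in replicate 2, a ratio of 0.0571 (0.0149 to 0.157).

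The remaining 13 tested members stayed within 4-fold between the intima libraries. Ebp, Nsdhl, Acly, Pmvk and Sc5d had ratios of 1.15, 1.20, 1.45, 1.57 and 1.60, so part of each branch was at similar levels in both libraries. Elovl5 at 3.60 lay just inside the threshold. Stard4, at 0.294 (0.189 to 0.450), Tm7sf2, at 0.698 (0.560 to 0.870), and Insig2, at 0.733 (0.675 to 0.797), were lower in replicate 2. Acss2, at 0.450 on 10 and 7 reads, had an interval of 0.145 to 1.31, which includes 1.

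Set against the adventitia, the intima libraries often departed in opposite directions. Intima replicate 1 was below all 3 adventitia libraries for 18 of 32 members, where 41.6% of all tested genes were, and above all of them for 1, Insig2 (32.8% of all tested genes). Intima replicate 2 was above all 3 for 19 members (37.5%) and below all of them for 4 (38.8%): Insig1, Stard4, Acss2 and Acaca. Replicate 2 was the highest library for 18 members (29.4% of all tested genes) and replicate 1 the lowest for 16 (28.1%). For 12 members replicate 1 was the lowest and replicate 2 the highest of all 5 libraries, against 11.3% of all tested genes. Fitted with intima replicate 2 alone the members' median log2 difference was 0.72, and with intima replicate 1 alone it was -1.69, while the medians over all genes tested in those fits were -0.54 and -0.62. Which intima library is closer to the usual state of these cells was not tested.

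Summed over members the levels showed the same split. The 34 genes together took 993, 898 and 983 CPM in adventitial cells, against 639 CPM in the first intima library and 2161 CPM in the second. The 11 later sterol enzymes took 189 to 394 CPM in adventitial cells against 198 and 775 CPM in intimal cells. For the 6 elongases and desaturases the sums were 129 to 229 CPM and 105 and 758 CPM. Insig1 makes up the largest part of the regulators' sum in each adventitia library, and that sum was 258 to 367 CPM in adventitial cells against 150 and 228 CPM in intimal cells.

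**Figure D4:**
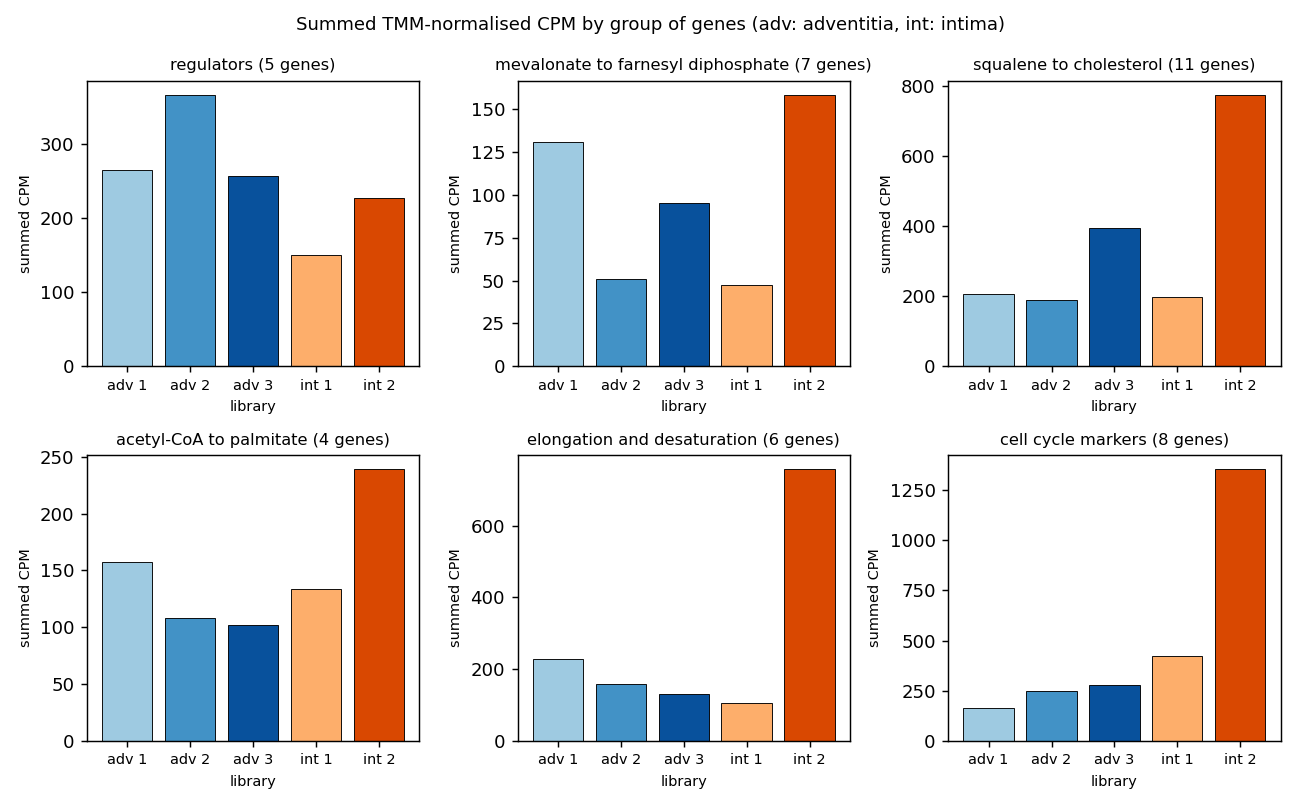
Summed TMM-normalised CPM of 5 groups of members and of 8 cell cycle markers in each library (bars from 0, 1 bar per library, no error since each is a single library). Intima replicate 2 has the tallest bar in every panel except the regulators.

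Other measures were set beside the intima contrast. All 8 cell cycle markers were higher in intima replicate 2, as were 6396 of all 13408 tested genes. Their sum was 1356 CPM against 422 CPM in replicate 1 and 165 to 277 CPM in the adventitia. Past 4-fold were 2 of the 8, against 19.7% of all tested genes. In replicates 2 and 1, Mcm5 differed most, at 233 and 3.14 CPM, and Pcna least, at 102 and 97.4 CPM. Top2a, the most abundant of them, was at 395 and 103 CPM. Replicate 2 was the deeper intima library but the one with fewer genes detected, also after thinning. Thinning every library to the smallest left 15 members past 4-fold in favour of replicate 2 and 1 against. Smooth muscle markers summed to 318 and 132 CPM and fibroblast markers to 314 and 236 CPM in replicates 1 and 2, and endothelial markers to 809 and 849 CPM. Single markers of these cell types went both ways. Past 4-fold, Tpm2, Lmod1, Col1a1 and Pi16 were higher in replicate 2, and Acta2, Col3a1 and Dcn in replicate 1. Of the tested adipocyte and Schwann cell markers, Lipe and Cnp were past 4-fold in favour of replicate 2, and 0 in favour of replicate 1. Col1a1, a collagen gene, was at 0.549 and 84.8 CPM, on 7 and 1685 reads. These markers were named after their values were seen. The part of these measures in the contrast was not tested.

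Markers of other cell types also differed between the groups. Endothelial markers summed to 31.8 to 43.3 CPM in the adventitia, with Pecam1 at 226 and 341 CPM in intimal cells, and 3 of 8 were called higher. Kdr ran the other way, at 1.09 to 1.81 CPM in adventitial cells against 0.235 and 0.0504 CPM in intimal cells. Tagln, 1 of 7 tested smooth muscle markers, was called higher in the intima, where 0.522% of all tested genes were called higher. Lum, 1 of 8 fibroblast markers, was called lower, where 0.149% of all tested genes were. Dcn, which was not called, was at 294 to 706 CPM in the adventitia against 125 and 16.2 CPM in the intima. Acta2, the most abundant smooth muscle marker, had 171 and 24.6 CPM in intimal cells and at most 2.90 CPM in adventitial ones. Of the 7 tested smooth muscle markers 6 had positive log2 differences. Myh11 was the negative one, at -2.09 (SE 1.42, adjusted p = 0.427 in edgeR), on 6 and 0 reads in intima replicates 1 and 2. Cnn1, which was not tested, had 4 and 0 reads there. The part of all these markers in the members' levels was not tested. Fat cells, which make fatty acids and border the aorta, left few reads. The adipocyte markers summed to 8.21 to 37.4 CPM in adventitial cells against 1.33 and 19.1 CPM in intimal cells. Lipe was the most abundant of them, at 0.470 and 18.8 CPM in intima replicates 1 and 2. Adipoq had no read in 4 of 5 libraries, and 6 of the 10 adipocyte markers had none in each intima library. Schwann cell markers summed to 30.9 to 48.4 CPM in adventitial cells against 26.9 and 69.1 CPM in intimal cells, carried by Mbp and Cnp. In intima replicates 1 and 2, Cnp was at 2.74 and 57.8 CPM and Mbp at 24.0 and 11.3 CPM, while Sox10 had no intima read.

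The adventitia libraries also differed among themselves. The highest was at least 4-fold above the lowest for 13 of 32 members, against 28.6% of all tested genes. Mvk spread 21.6-fold and Sqle 20.1-fold, both with adventitia replicate 2 lowest, and Tm7sf2 9.73-fold with replicate 1 highest. Scd2 and Cyp51 were the steadiest here, at 1.18-fold and 1.21-fold. Both were past 4-fold between the intima libraries.

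Per annotated exon length the members covered a wide range of levels. That length counts all annotated exon bases of a gene, such as 10163 for Acss2, and not those of 1 transcript. In deposited RPKM, reads scaled by library total and gene length with no further normalisation, Insig1 had the highest mean over the 5 libraries at 61.0, followed by Ebp at 35.8, Elovl5 at 29.4, Acly at 22.8 and Pmvk at 22.4. Insig1 was at 78.9, 108 and 67.6 RPKM in the adventitia, above every other member there, but at 16.8 and 33.98 RPKM in the intima it lay below Ebp in both libraries. Fasn, with 9849 annotated exon bases, had a mean of 2.05 RPKM, and Acaca and Acss2 had means of 0.296 and 0.268 RPKM. Scd2 was at 3.74 RPKM in intima replicate 1 and 48.8 RPKM in replicate 2, where only Elovl5 at 62.3 RPKM was higher. Ranks between neighbours such as Acly and Pmvk do not differ beyond the spread of the libraries.

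Further genes of both routes showed no called change. None of 15 matched and tested genes of the wider sterol route and none of 20 of the wider fatty acid route was called by edgeR. Their median log2 differences were 0.60 and 0.21, against 0.14 over all tested genes. In the edgeR test 1 and 5 of them had an unadjusted p under 0.05, where 22.4% of all tested genes did. Ch25h, which makes an oxysterol that holds Srebf processing back, was at 22.1 to 59.3 CPM in adventitial cells against 204 and 59.8 CPM in intimal cells (log2 difference 1.83, SE 0.68, adjusted p = 0.146 in edgeR). Ggps1, which extends farnesyl diphosphate, had a fitted difference of 1.84 (SE 0.94, adjusted p = 0.274 in edgeR). Erlin2, an endoplasmic reticulum protein, had one of -1.79 (SE 0.89, adjusted p = 0.258 in edgeR). Agpat2, an acyltransferase of lipid assembly, was at 0.875 to 8.71 CPM in adventitial cells against 47.9 and 34.1 CPM in intimal cells (log2 difference 3.36, SE 1.24, adjusted p = 0.147 in edgeR), and DESeq2 called it. Hacd3, Lpin1 and Mid1ip1 had log2 differences of 1.66, -2.28 and -0.99, and Nus1 one of -0.23, with adjusted p-values from 0.176 to 0.937 in edgeR.

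A few of these genes, named after their values were seen, also differed between the intima libraries. Aacs, which activates acetoacetate for lipid synthesis, had 0.0784 CPM in the first intima library and 47.9 CPM in the second, with 0.901 to 2.41 CPM in the adventitia. Mbtps2, a protease that cleaves the Srebf proteins, was at 3.45 and 52.2 CPM, Gpam, the first acyltransferase of glycerolipid synthesis, at 0.157 and 20.5 CPM, and Me1, malic enzyme, at 0.0784 and 11.5 CPM. Dgat1, which makes triglyceride, and Nus1 of the dolichol branch ran the other way, at 19.1 and 0.0504 CPM and at 135 and 3.42 CPM. In all, 5 of these 35 genes were past 4-fold in favour of replicate 2, against 19.7% of all tested genes. In favour of replicate 1 were 3, against 11.9%. Whether the share among these 35 genes differs from the members' share was not tested.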

How the data were processed

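Cells were lysed after sorting, cDNA was made with the SMARTer Ultra Low RNA kit and single reads of 50 bases were taken on an Illumina HiSeq-3000, per the labels' protocols. STAR 2.0.4b, featureCounts 1.4.5, Subread and GRCm38 are named in the submitters' processing notes; the annotation release and the strand setting are not given in the sources used here. The deposited values are raw counts of reads per gene, with CPM and RPKM beside them per the file headers. The deposited CPM and RPKM were recomputed from the deposited counts and 0 values differed at a tolerance of 1e-06. Libraries were grouped by their labels, and replicates were compared before use.

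Counts were tested with edgeR 4.0.16 (quasi-likelihood, TMM, filterByExpr at its settings of 10 reads and 15 in total) in R 4.3.3, on all 5 libraries without a replicate block, with Benjamini-Hochberg adjustment over 13408 genes and a threshold of 0.05. Standard errors are the log2 difference divided by the root of the F statistic. Ratios between libraries had 0.5 CPM added to both sides and were counted past 4-fold and 16-fold. Intervals are exact at 95%, ratios against 0 reads use a floor of 3 reads, and both cover counting error only. Depth ran from 3941381 to 20806925 reads, and levels on few reads are imprecise. Alternatives were DESeq2 1.42.0, limma 3.58.1 voom, other scalings, other filters, thinned counts, the replicate block, other added values and folds, and leaving out each library; upper-quartile scaling of the intima contrast and the restriction to members with little shared sequence were added after seeing the data. The count test was tested on simulated data. Tables and plots were made with Python 3.11.15, pandas 2.3.3, scipy 1.17.1 and matplotlib 3.10.9. Shared sequence was counted in windows of 50 bases over GENCODE M21 transcripts.

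The members and the other gene lists were chosen with earlier results of these data known. Every member is accounted for. Full statistics were given for the main regulators and enzymes, for the 4 largest differences in each direction, for members whose groups did not overlap and for those past 4-fold between the intima libraries. Of the other pathway lists, called genes and the 2 largest differences in each direction at an average log2 CPM of at least 4 were named, and of each marker list its most abundant gene. Of 16 further sterol genes 15 matched a symbol.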

Additional observations from a re-analysis of the deposited data

How the results depend on the processing

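The count of called members was 0 in the reported fit and 1 with DESeq2 (Insig1), and leaving out 1 adventitia library gave 0. Calls are not counted for fits with 1 intima library left, since those fits hold no spread within the intima. Of the other pathway genes DESeq2 called 1 (Agpat2) and limma voom 1 (Elovl7). Over all genes edgeR called 90, DESeq2 1180, voom 839 and the fit without a filter 386. Leaving out a library gave 10, 52 and 46 for adventitia replicates 1 to 3. Among members with little shared sequence 2 of 24 had groups that did not overlap, against 40.9% of all tested genes, which were not restricted in this way. The adventitia spread was past 2-fold for 22 members, past 4-fold with 2 CPM added for 8, and past 4-fold for 5 to 8 when 1 adventitia library was left out. Between the intima libraries 19 members were past 4-fold in either direction, and 22 were past 2-fold. The count past 4-fold was 15 with 2 CPM added, 16 with thinned counts, 20 with library size alone and 19 with upper-quartile scaling. Among the 24 members with little shared sequence it was 15. In favour of replicate 1 it was 0 with 2 CPM added and 0 among those 24. The cause of these shifts was not tested.

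Signs changed for 23 members under some setting. None of them was called in the reported fit or in a fit that changed its sign. With DESeq2, and with its size factors in edgeR, Srebf2 was -0.10, Mvk -0.21, Hsd17b7 -0.040 and Ebp -0.089. With at least 1 CPM in every library Pmvk was -0.035 and Ebp -0.27. With thinned counts Mvk was -0.56, Hsd17b7 -0.21 and Ebp -0.29, and with library size alone Srebf2 was -0.043, Mvk -0.14 and Ebp -0.15. With voom Srebf1 was 0.22, Srebf2 -1.07, Mvk -1.53, Cyp51 -1.44, Tm7sf2 0.36, Hsd17b7 -1.63, Elovl6 -2.03 and Scd1 -0.52. Without a filter Srebf1 was 0.018, Mvd 0.022 and Nsdhl 0.052. With upper-quartile scaling Srebf2 was -0.41, Mvk -0.50, Pmvk -0.17, Hsd17b7 -0.36, Ebp -0.42, Sc5d -0.094 and Fads1 -0.013.

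With the replicate number as a block 0 members and 183 of all genes were called, and Srebf1 was 0.76, Srebf2 -1.39, Mvk -0.84, Mvd 0.33, Cyp51 -1.73, Nsdhl 0.56, Hsd17b7 -0.53, Elovl6 -0.82 and Scd1 -1.12. The deviations of libraries with the same number correlated at 0.0350 and 0.00565, and nothing in the labels says that a number marks a shared animal or day, so the block has no basis in the design.

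Leaving out 1 library at a time gave these ranges: Srebf1 -1.69 to 0.91, Srebf2 -3.88 to 0.93, Scap -0.076 to 0.97, Acat2 -8.79 to 0.31, Hmgcs1 -3.67 to 0.31, Mvk -7.35 to 0.90, Pmvk -0.018 to 1.15, Mvd -2.08 to 0.86, Fdft1 -2.52 to 2.45, Sqle -4.04 to 2.64, Cyp51 -7.42 to 2.81 and Tm7sf2 -1.09 to 0.95. For the rest they were Nsdhl -0.59 to 0.27, Hsd17b7 -5.74 to 1.05, Ebp -0.21 to 0.53, Sc5d -0.047 to 1.14, Dhcr7 -2.94 to 2.43, Fasn -1.27 to 2.06, Elovl5 -0.14 to 1.48, Elovl6 -8.78 to 2.32, Scd1 -5.80 to 2.69, Scd2 -0.28 to 3.04 and Fads1 -1.34 to 1.20. With 1 intima library left, that library is assumed to vary like the adventitia. The other 9 members kept their sign under every setting run: Acaca, Acly, Acss2, Fdps, Insig1, Insig2, Lss, Msmo1 and Stard4.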
